A study of Mus musculus with 3 samples.

Results

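The 6 genes described here belong to the connexin family and were measured by RNA sequencing in whole mouse skin before birth, just after it and in the adult. They were chosen by name: Gja1, Gjb2, Gjb5 and Gjb6, connexins known from keratinocytes, and Gja4 and Gja5, known from blood vessels. All 6 were found, among 21885 gene rows and among 20 connexin genes in the tables. The skin came from mice of the inbred strain FVB, headed WT in the tables, taken on day 18.5 of embryonic life (E18.5), on day 3 after birth (P3) or at 10 weeks. No treatment, sex or body site is named in the labels. The design speaks of 2 biological replicates per age, but the tables used here give 1 averaged value per gene and age, so no error, interval or p-value can be attached to any value, and nothing below has a replicate check.

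Connexins are membrane proteins. Sets of them form a half-channel in one cell, which docks with a half-channel of the neighbouring cell, and plaques of such channels make up a gap junction, through which ions and small molecules pass directly between cells. Keratinocytes make several connexins, whose mix changes with their differentiation and in the hair follicle, and inherited changes in several of them cause skin disease in people. Endothelial cells, above all those of arteries, couple through Gja4 and Gja5.

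Values are FPKM, fragments scaled to transcript length and to the mapped fragments of a library, so that levels of different genes in 1 library may be set side by side. Each difference between ages is on the log2(FPKM + 1) scale, later age minus earlier age. A gene is called higher or lower where this difference is at least 1 in size, a 2-fold change on this scale, which understates the change of low genes. The value at each age enters 2 of the 3 comparisons. The genes compared reached 1 FPKM at some age, and all 6 connexins did so at every age, with the authors' status mark OK for all 18 values.

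Whole skin is a mixture, and fewer cells of a type and less RNA per cell cannot be told apart in it. Its epidermal markers were abundant: the basal keratins Krt5 and Krt14 had 1058 and 952 FPKM in E18.5 skin, 2638 and 2439 in P3 skin, and 816 and 646 in adult skin. The endothelial marker Pecam1 was at 55.4, 17.7 and 48.3 FPKM at the 3 ages. Between 12886 and 13779 genes reached 1 FPKM per age, and, with no read numbers in the sources used here, the depth is unknown. The ages also differed in sex-linked RNA: Xist had 0.0433 FPKM before birth, then 64.6 and 73.0, and Ddx3y had 24.1 and 0.0218 FPKM at the first 2 ages and was listed at 0 in the adult. This difference and age cannot be told apart. None of the 6 connexins lies on a sex chromosome.

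The 4 keratinocyte connexins were highest at P3, and the 2 vascular ones were lowest there. From E18.5 to P3, 4 of 4 keratinocyte connexins were higher and 2 of 2 vascular ones lower; of the 14653 genes compared, 9.56% were higher (1401) and 9.42% lower (1380). From P3 to 10 weeks, 4 of 4 keratinocyte connexins were lower, Gja4 was higher and Gja5 stayed under the threshold; of 14655 genes, 9.98% were lower (1462) and 19.8% higher (2909). Between E18.5 and 10 weeks Gjb6 and Gja5 were lower and the other 4 were under the threshold, where 6.92% of 14659 genes were lower (1014) and 16.1% higher (2358). The median log2 difference over all genes was 0.03, 0.14 and 0.22 in these comparisons. The balance of higher and lower genes depends on scaling. With the upper quartile it became 1099 higher against 1840 lower from E18.5 to P3. With the median of ratios it became 2415 against 1916 between P3 and 10 weeks. Between E18.5 and 10 weeks it became 1817 against 1294 with the median of ratios and 1786 against 1349 with the upper quartile. The only call on a connexin that a scaling ended was that of Gja1 from E18.5 to P3, and the only one added was that of Gjb2 from E18.5 to 10 weeks, both given below.

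**Figure D1:**
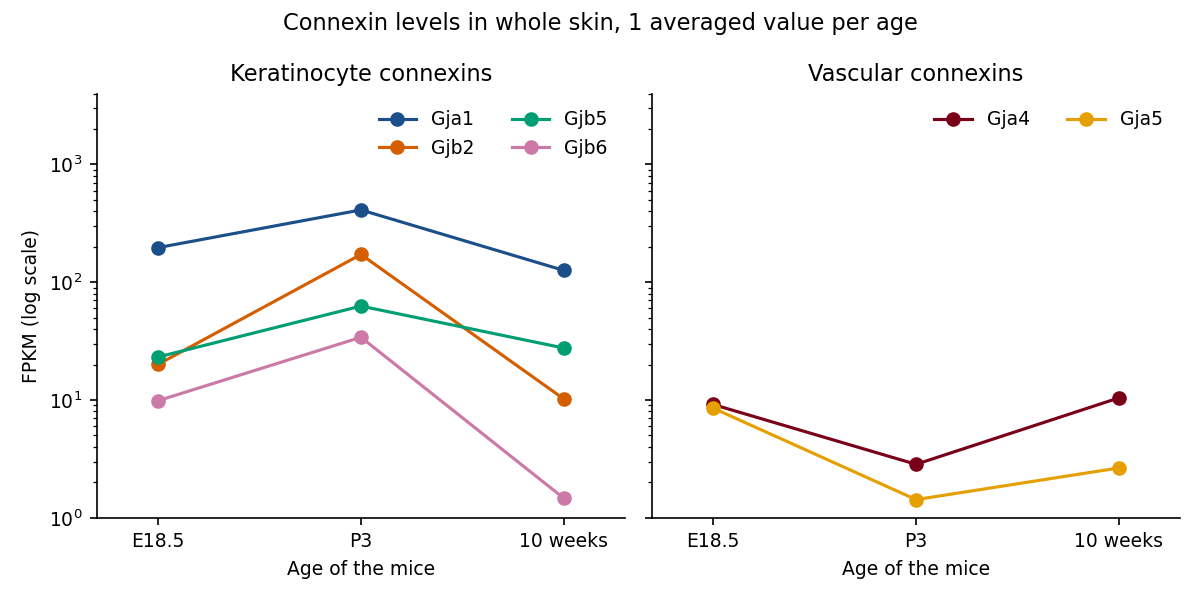
FPKM (log axis) of the 4 keratinocyte connexins (left) and the 2 vascular connexins (right) at E18.5, P3 and 10 weeks. Each point is 1 averaged value, so there are no error bars. The lines on the left peak at P3, Gja1 at 411 FPKM, and those on the right dip there, Gja5 to 1.43 FPKM.

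Gja1 encodes Cx43, the connexin with the widest distribution in the body, which keratinocytes share with fibroblasts, smooth muscle and many other cells. It lies on chromosome 10 (mm9, 56097106 to 56110225). It had 197 FPKM in the embryo, 411 in the newborn and 126 in the adult, the highest of the 6 at every age. The P3 value was 2.09 times that at E18.5 and 3.26 times that at 10 weeks. The log2 difference from E18.5 to P3 was 1.06, just past the threshold, that from P3 to the adult -1.70, and that between embryo and adult -0.64. With upper-quartile scaling the first was 0.84 and no longer a call. Its FPKM was 0.207, 0.169 and 0.195 of that of Krt14 at the 3 ages. Markers of fibroblasts, which also carry Gja1, were lower in 8 of 8 cases from E18.5 to P3 (median -1.46) and higher in 5 of 8 from P3 to the adult (median 2.17), the reverse of Gja1, with a summed FPKM of 3445, 1249 and 4364. Smooth muscle and pericyte markers were under the threshold in 8 of 8 from E18.5 to P3 (median -0.17) and higher in 6 of 8 from P3 to 10 weeks (median 1.20), with a summed FPKM of 195, 189 and 403. In both lists 0 markers were listed at 0 at any age, and the part of these cells in the Gja1 values was not tested.

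Gjb2 encodes Cx26, known in skin from hair follicles and from epidermis that proliferates strongly, and from the human disorders of deafness with thickened skin. It lies on chromosome 14 (mm9, 57717439 to 57723539). On the log2(FPKM + 1) scale it had the widest swing of the 6, with 20.1 FPKM before birth, 172 FPKM at P3 and 10.2 FPKM in the adult. The P3 value was 8.57 times the embryonic and 16.9 times the adult one. The log2 difference from E18.5 to P3 was 3.04, and 99.0% of all genes compared had a lower one. From P3 to 10 weeks it was -3.95, and 0.928% of genes had a lower one. In this step the order of Gjb2 and Gjb6 depends on the setting. With a pseudocount of 0.1 Gjb2 was at -4.06 and Gjb6 at -4.45, and with a common total at -4.11 and -4.15. The adult level was below that of the embryo by a log2 difference of -0.91, under the threshold as deposited but past it with each of the other scalings, at -1.16 with the median of ratios, -1.19 with the upper quartile and -1.07 with a common total. At P3 Gjb2 came second among the 6 in FPKM, whereas at 10 weeks Gja1, Gjb5 and Gja4 all had more.

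Gjb6 encodes Cx30, often found in the same cells as Cx26 and mutated in a human ectodermal dysplasia of hair, nails and palms. It is the neighbour of Gjb2 (chromosome 14, mm9 57742140 to 57752414). Its FPKM was 9.87 before birth, 34.1 just after it and 1.47 in the adult. The log2 differences were 1.69, -3.83 and -2.14 in the 3 comparisons, and the plain FPKM was 23.3 times higher at P3 than in the adult. Among the keratinocyte connexins it was the only one called lower in the adult than in the embryo, 6.74 times lower in plain FPKM. Gjb6 stood between Gja4 and the other keratinocyte connexins at E18.5 and P3, and below all 5 others at 10 weeks. The ratio of Gjb2 to Gjb6 in FPKM was 2.03 before birth, 5.04 just after it and 6.97 in the adult, so that the pair moved in the same direction but not in proportion.

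Gjb5 encodes Cx31.1, a connexin of stratified epithelia, and lies on chromosome 4 (mm9, 127032053 to 127035408). It stood at 23.2 FPKM in the embryo, 62.7 FPKM in the newborn and 27.6 FPKM in the adult. The log2 differences were 1.40, -1.16 and 0.24, so that the adult and embryonic values were within the threshold of each other. Its swing was thus far narrower than that of Gjb2, with a P3 level 2.71 times the embryonic and 2.27 times the adult one. Gjb2 had 0.866 of the FPKM of Gjb5 at E18.5, 2.74 times as much at P3 and 0.370 of it at 10 weeks.

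Gja4 encodes Cx37 and lies on chromosome 4 (mm9, 126988665 to 126991222). Its FPKM was 9.17 in the embryo, 2.85 in the newborn and 10.4 in the adult. The log2 differences were -1.40, 1.57 and 0.17, so that the adult value was close to the embryonic one. With a pseudocount of 5 FPKM in place of 1, which damps low genes, the first 2 were -0.85 and 0.98 and no longer calls. Gja5 encodes Cx40, a connexin of arterial endothelium and of the conduction tissue of the heart, and lies on chromosome 3 (mm9, 96836339 to 96857557). Its FPKM was 8.54 before birth, 1.43 at P3 and 2.65 in the adult. The log2 differences were -1.97, 0.59 and -1.38, and with a pseudocount of 5 the last was -0.82. Gja4 and Gja5 thus had nearly the same FPKM in the embryo, a ratio of 1.07. That ratio was 1.99 at P3 and 3.93 in the adult, where Gja4 was back at its embryonic level and Gja5 was not.

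In order of FPKM, the sequence was Gja1, Gjb5, Gjb2, Gjb6, Gja4, Gja5 at E18.5, with Gjb2 (20.1) and Gjb5 (23.2), and likewise Gjb6, Gja4 and Gja5 (9.87, 9.17 and 8.54), near one another. At P3 it was Gja1, Gjb2, Gjb5, Gjb6, Gja4, Gja5, with the closest neighbours, Gjb5 and Gjb6, 1.84 times apart. At 10 weeks it was Gja1, Gjb5, Gja4, Gjb2, Gja5, Gjb6, with Gja4 (10.4) and Gjb2 (10.2) side by side. With 1 value per age it cannot be said which neighbours in these orders differ beyond the spread between mice.

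The markers of the cell types that these connexins are known from were set beside them. From E18.5 to P3, 4 of 8 basal keratinocyte genes were higher and 0 lower (median 1.15). Of 10 genes of differentiating keratinocytes, 9 were higher and 0 lower (median 1.90). From P3 to 10 weeks, 3 of 8 basal genes (median -0.62) and 9 of 10 differentiating ones (median -1.89) were lower. The difference of Gja1 from E18.5 to P3 (1.06) was thus near the basal median, and that from P3 to the adult (-1.70) near the differentiating one. Gjb5 lay between the medians of both lists in both steps. Gjb2 exceeded all 8 basal genes and 9 of the 10 differentiating genes from E18.5 to P3. From P3 to 10 weeks Gjb2 and Gjb6 each had a lower difference than all 8 basal and all 10 differentiating genes. They were at -2.06 and -1.94 log2 units from the median of the differentiating genes. The lowest of these genes, Lor, was near them, at -3.73 beside -3.95 for Gjb2 and -3.83 for Gjb6. Against E18.5, Gjb6 in the adult was again below all 18 of these genes. With a pseudocount of 5, which damps low genes, Gjb6 was at -2.60 against P3 and -1.20 against E18.5. Gjb2 was then at -3.54 against P3. The places of Gjb2 and Gjb6 below every marker thus depend on the pseudocount. The hair shaft list, 8 keratins and regulators of the growing hair, was higher in 8 of 8 at P3 (median 3.99) and lower in 8 of 8 at 10 weeks (median -4.29), and its summed FPKM was 45.2, 778 and 35.9 at the 3 ages. Hair shaft genes thus had their peak at P3, as all 4 keratinocyte connexins did, and their part in the values of these connexins was not tested. Of 8 proliferation genes, 0 passed the threshold from E18.5 to P3 (median 0.19), and 8 were lower from P3 to 10 weeks (median -2.55), with a summed FPKM of 244, 274 and 37.6; their part was likewise not tested.

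From E18.5 to P3, 12 of 12 endothelial markers were lower, with a median of -1.54, and from P3 to the adult 9 of 12 were higher, with a median of 1.42. Their summed FPKM was 339, 108 and 320. Gja4 followed this list, 0.14 and 0.15 log2 units above its median in the 2 steps. Its FPKM was 0.165, 0.161 and 0.216 of that of Pecam1. Gja5 had a lower difference than all 12 endothelial genes from E18.5 to P3 and again from E18.5 to 10 weeks, and than 11 of 12 from P3 to 10 weeks. With a pseudocount of 5, which damps low genes, Gja5 was at -1.07 from E18.5 to P3. Its place below every endothelial marker in that step thus depends on the pseudocount. The FPKM of Gja5 was 0.154 of that of Pecam1 before birth, 0.0807 of it in the newborn and 0.0549 of it in the adult. Arterial genes were mixed: from E18.5 to P3, 4 of 9 were lower and 1 higher (median -0.43), and from E18.5 to 10 weeks 0 of 9 passed the threshold in either direction (median 0.15). Gja5 lay below all 9 in both of these comparisons. From P3 to 10 weeks 2 of 9 arterial genes were higher and 1 lower (median 0.94), and Gja5 lay above 4 and below 5 of them. Gja4 lay below 8 of 9 arterial genes from E18.5 to P3 and above 8 of 9 from P3 to 10 weeks. It was at -0.97 and 0.63 log2 units from their median in these steps, and at 0.01 from E18.5 to 10 weeks. Several genes of the arterial list, such as Efnb2 (17.9, 31.0 and 25.8 FPKM), are also known from cells outside arteries. The part of such cells in its values was not tested.

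Markers of other cell types were lower at P3 as well. Skeletal muscle markers were lower in 8 of 8 cases from E18.5 to P3 (median -3.27) and higher in 7 of 8 from P3 to 10 weeks (median 5.51), with a summed FPKM of 4561, 386 and 19827. Adipocyte markers were lower in 5 of 8 and higher in 1 of 8 in the first step (median -1.27) and higher in 8 of 8 in the second (median 2.43), with sums of 5997, 1880 and 8278 FPKM. Macrophage markers were lower in 5 of 8 (median -1.14), then higher in 8 of 8 (median 3.77), with sums of 224, 89.1 and 2295 FPKM. Venous and lymphatic markers were lower in 2 of 8 (median -0.51), then higher in 4 of 8 (median 1.00). In the muscle, adipocyte and macrophage lists 0 markers were listed at 0 at any age, and the part of these cells in the Gja4 and Gja5 values was not tested.

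**Figure D2:**
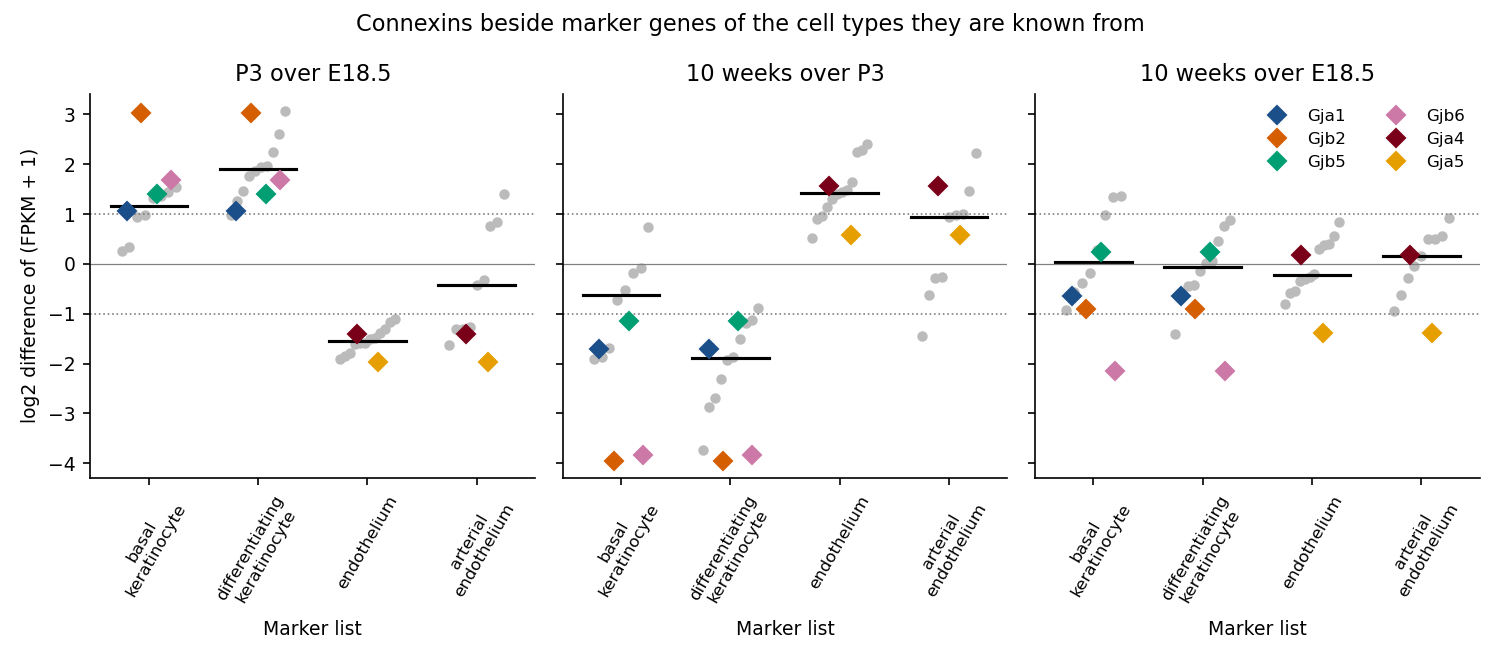
Log2 difference of (FPKM + 1) in the 3 comparisons for the connexins (coloured diamonds) and the genes of 4 marker lists (grey points, with the list median as a black bar). Dotted lines mark the threshold of 1. Gjb2 and Gjb6 lie below every keratinocyte marker from P3 to 10 weeks, the lowest of which, Lor, is near them at -3.73. This place of Gjb2 and Gjb6 depends on the pseudocount. Gja5 lies below every endothelial marker from E18.5 to 10 weeks.

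Shares within the connexin family do not move with the scaling of a library. Together the 20 connexin genes had 346 FPKM in the embryo, 910 in the newborn and 270.2 in the adult, that is 0.0583%, 0.150% and 0.0413% of all FPKM. Gja1 made up 56.8%, 45.2% and 46.6% of the connexin sum. Gjb2 and Gjb6 together held 8.65% in the embryo, 22.7% at P3 and 4.32% in the adult. The share of Gjb2 alone was 5.80%, 18.9% and 3.78%, and that of Gjb6 2.85%, 3.75% and 0.542%. Gjb5 held 6.69%, 6.90% and 10.2%. The vascular pair held 5.11%, 0.470% and 4.84%, of which Gja4 had 2.65%, 0.313% and 3.86%, and Gja5 2.46%, 0.157% and 0.981%. Together the 4 keratinocyte connexins held 72.1% in the embryo, 74.7% in the newborn and 61.2% in the adult.

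**Figure D3:**
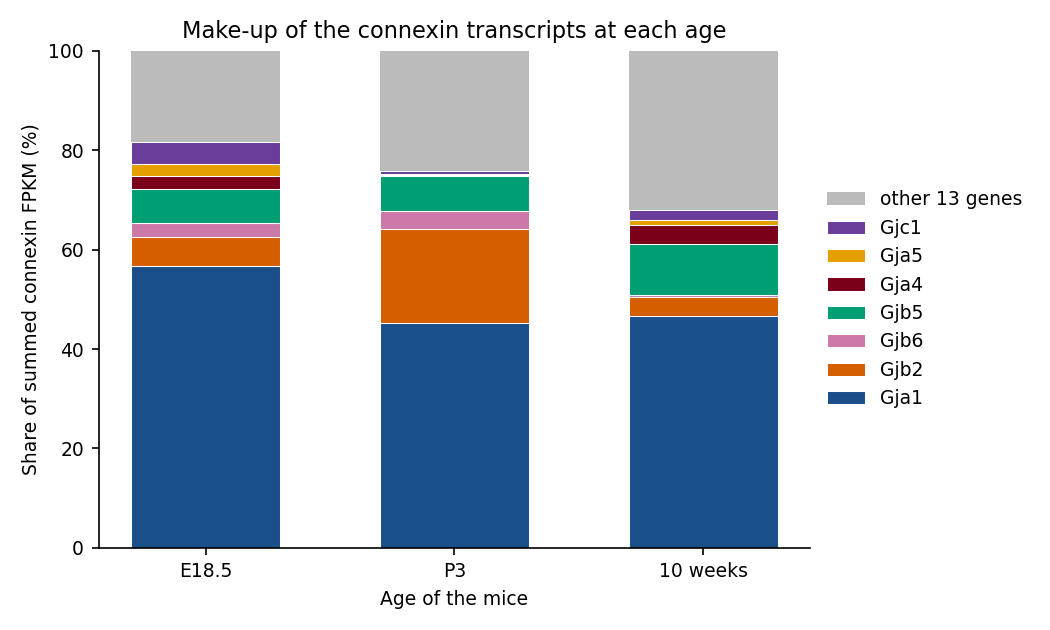
Share of each connexin gene in the summed connexin FPKM (%), stacked for each age; colours mark the 6 connexins and Gjc1, and grey holds the other 13 of the 20 genes. Gjb2 and Gjb6 widen at P3 (22.7% together), and Gjb5 takes up 10.2% in the adult.

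Of the other 14 connexin genes, 6 reached 1 FPKM at some age and 8 did not, and 3 of these 6 are described. Gjc1, the gene of Cx45, a connexin of smooth muscle and the embryonic heart, was at 15.5, 5.38 and 5.09 FPKM at the 3 ages, lower at P3 and at 10 weeks than at E18.5 (-1.37 and -1.44), the first at -0.98 with a pseudocount of 5. Gja5 was called lower in the same 2 comparisons. Gja3, best known from the lens, was at 1.79, 4.15 and 0.158 FPKM, called lower in the adult than at either earlier age (-2.15 against P3, -1.27 against E18.5). With a pseudocount of 5 neither was a call (-0.83 and -0.40). Both calls rest on the adult value, which carried the status mark NOTEST in place of OK. Gjc3, known from Schwann cells, was at 2.02, 1.85 and 1.65 FPKM, although 6 of 7 Schwann cell markers were higher at 10 weeks than at P3 (median 1.85). Gjc3 was not called in any comparison.

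Of the 6 connexins, 4 share a region with another one, and genes of a region did not always go the same way. On chromosome 4, Gja4 and Gjb5 lie within 46.7 kb (mm9, 126988665 to 127035408). Gja4 was lower at P3, while Gjb5 was higher. The ratio of Gjb5 to Gja4 FPKM was 2.53, 22.0 and 2.65 at the 3 ages. The nearest gene row at coordinates below Gja4, BC003266, was at 17.0, 15.8 and 23.0 FPKM, and beyond Gjb5 lay CK137956, under 1 FPKM throughout. On chromosome 14, Gja3, Gjb2 and Gjb6 occupy 97.9 kb (mm9, 57654497 to 57752414), and each had its highest FPKM at P3 and its lowest in the adult. The adult value of Gja3 was marked NOTEST. The next gene past Gjb6, Cryl1, was at 13.3, 28.1 and 18.0 FPKM, at log2 differences of 1.03 to P3, a call lost with upper-quartile scaling (0.83), and -0.61 to the adult. Acp6, a neighbour of Gja5, was at 16.4, 16.8 and 22.8 FPKM. Gja1 stands alone, 148610 bp from Msl3l2 (1.47, 1.79 and 2.06 FPKM) and 1095965 bp from Hsf2 (7.98, 5.62 and 15.5 FPKM).

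**Figure D4:**
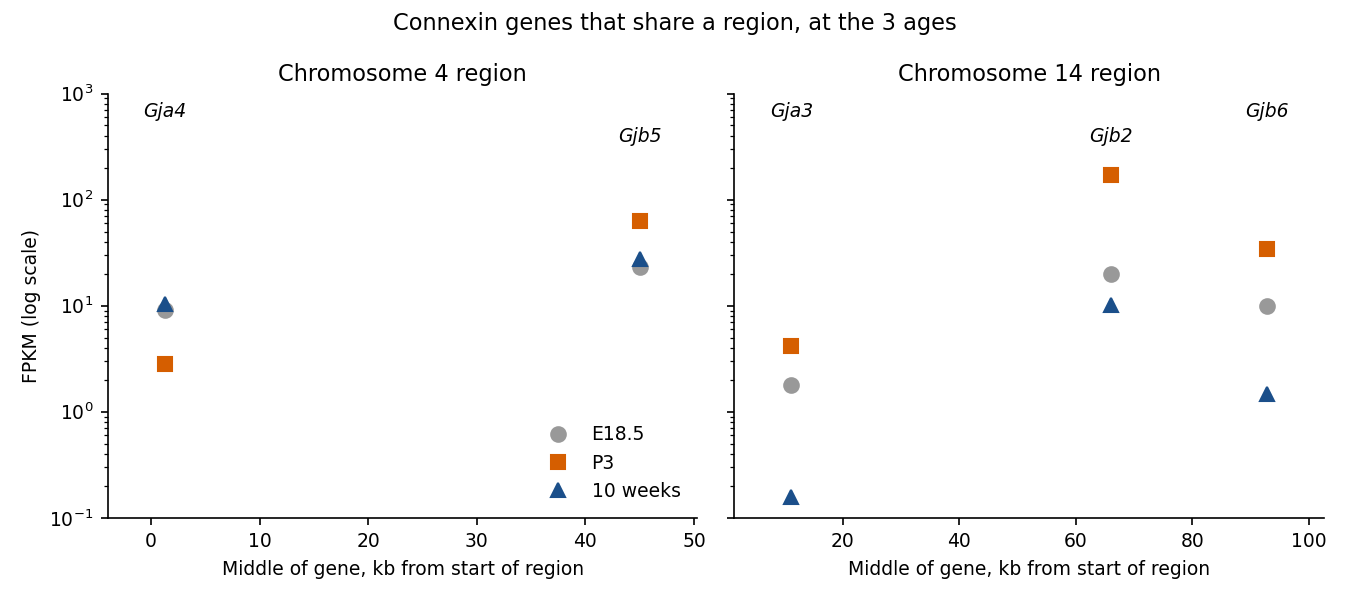
FPKM (log axis) of connexin genes that share a region against the distance of each gene's middle from the start of the region, in kb, at E18.5 (grey circles), P3 (orange squares) and 10 weeks (blue triangles). On chromosome 4 the P3 value is the lowest of the 3 for Gja4 and the highest for Gjb5; on chromosome 14 it is the highest for all 3 genes.

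Promoter windows of 4 genes are shown because they belong to these 2 regions and moved together (Gjb2 and Gjb6) or in opposite directions (Gjb5 and Gja4). Each runs from 250 bases before to 50 after a RefSeq start, 5′ to 3′ on the gene's strand, all 4 on the minus strand of build GRCm38.p6, at chr14:57104653-57104952 for Gjb2, chr14:57133562-57133861 for Gjb6, chr4:127358115-127358414 for Gjb5 and chr4:127313990-127314289 for Gja4. Capitals mark matches on either strand to a TATA box, spelled TATAAA, to a GC box, GGGCGG, to an AP-1 site, TGANTCA, to an ETS core, AGGAAG, to a GATA site, AGATAA, and to the p53-family half-site, the motif class that p63 also binds.
Gjb2: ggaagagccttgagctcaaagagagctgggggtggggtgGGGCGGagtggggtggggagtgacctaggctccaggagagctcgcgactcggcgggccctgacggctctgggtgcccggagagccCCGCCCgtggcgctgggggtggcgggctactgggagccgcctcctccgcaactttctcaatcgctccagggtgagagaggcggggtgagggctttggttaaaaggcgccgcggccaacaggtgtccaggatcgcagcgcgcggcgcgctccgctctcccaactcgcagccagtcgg
Gjb6: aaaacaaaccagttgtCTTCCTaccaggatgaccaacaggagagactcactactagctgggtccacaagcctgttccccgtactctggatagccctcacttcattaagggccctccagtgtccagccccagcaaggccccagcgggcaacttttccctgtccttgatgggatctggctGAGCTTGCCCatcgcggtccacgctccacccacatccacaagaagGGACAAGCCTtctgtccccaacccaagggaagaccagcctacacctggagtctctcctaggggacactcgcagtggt
Gjb5: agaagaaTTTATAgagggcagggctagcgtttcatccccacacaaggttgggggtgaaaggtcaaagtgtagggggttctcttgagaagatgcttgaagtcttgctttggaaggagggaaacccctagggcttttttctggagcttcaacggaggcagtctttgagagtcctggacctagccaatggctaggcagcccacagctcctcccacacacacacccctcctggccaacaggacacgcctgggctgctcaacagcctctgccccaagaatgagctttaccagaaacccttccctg
Gja4: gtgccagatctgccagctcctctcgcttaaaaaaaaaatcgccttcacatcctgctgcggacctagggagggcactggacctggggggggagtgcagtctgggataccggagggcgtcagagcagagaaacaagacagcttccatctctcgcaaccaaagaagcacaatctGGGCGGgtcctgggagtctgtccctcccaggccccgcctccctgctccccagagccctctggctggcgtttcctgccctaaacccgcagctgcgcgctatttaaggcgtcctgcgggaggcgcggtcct

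These neighbours differ in composition. The Gjb2 window is 70.0% G or C with 27 CpG pairs and 2 GC boxes, whereas that of Gjb6 is 57.3% with 6 CpG pairs and none. The Gjb6 window has 2 matches to the p53-family half-site, which start 72 and 27 bases before the start site, and 1 to the ETS core. Of 32841 RefSeq windows of this length, 8.36% hold at least 1 such half-site and 0.359% hold 2 or more; a GC box is found in 35.7% and an ETS core in 35.4%. The Gjb5 window is 54.3% G or C with 3 CpG pairs and a TATAAA match on the opposite strand, 243 bases before the start, a motif in 13.6% of windows. The Gja4 window is 62.0% G or C with 16 CpG pairs and 1 GC box. Windows were found for 6 of 6 connexins. That of Gja1 (47.7% G or C) holds an AP-1 match 19 bases before the start, as 7.81% of windows do anywhere, together with an ETS core and a GATA match, the latter in 11.2% of windows. That of Gja5 (55.7%) holds a GC box and an ETS core. The half-site was not matched in the other 5 windows. Matches are letters only, and binding was not measured.

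Another 14 genes known to bind, anchor, modify or turn over connexins were followed as well. From E18.5 to P3, 2 of 14 were higher, Cdh1 among them, and 1 was lower, Cav1, beside 9.56% and 9.42% of all genes. From P3 to 10 weeks Cdh1 was called lower and Cav1 higher, and from E18.5 to 10 weeks 0 of 14 passed in either direction. Cdh1, E-cadherin, whose adhesion gap junction assembly depends on, was at 44.2, 159 and 53.9 FPKM. Cav1, the coat protein of caveolae and abundant in fat and endothelial cells, was at 484, 148 and 338 FPKM; its log2 difference from P3 to the adult was 1.19, and 0.95 with the median of ratios. The scaffold Tjp1 (ZO-1), which binds the tail of Cx43, was under the threshold throughout, at 20.7, 28.4 and 19.6 FPKM. The list's median difference was 0.31, -0.33 and 0.07. Of the pannexins, channel proteins related to connexins in shape, Panx1 was at 8.50, 11.6 and 8.68 FPKM with no call. Panx3 was at 0.128, 0.907 and 5.76 FPKM and was called higher in the adult than at P3 (1.82, or 0.86 with a pseudocount of 5) and E18.5 (2.58), while Panx2 stayed under 1 FPKM. The E18.5 value of Panx3 carried the status mark NOTEST in place of OK.

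Genes whose course over the ages was most like that of each connexin were found by the distance between the 3 log2(FPKM + 1) values after centring each gene on its own mean, among 9028 genes that reached 10 FPKM (9029 for Gja5, which did not reach it itself). Nearest to Gja1 were Rab27b, Sdr16c5 and Tmem125, with distances of 0.01, 0.05 and 0.07, and 66 genes lay within 0.25. Gjb5 had 180 genes within 0.25, led by Mical2, Perp and Avpi1; Perp, a desmosome protein that p63 controls, stood at 659, 1727 and 795 FPKM. Gjb2 had 4 genes within 0.25, led by Cpm, the cornified envelope protein gene Lor (641, 5378 and 403 FPKM) and Krt28, a keratin of the hair's inner root sheath (27.5, 287 and 14.3 FPKM). Gjb6 had 3, the calmodulin-like Calm4 of differentiating keratinocytes (1733, 5280 and 395 FPKM), Chga and the row of the microRNA Mir715. Gja4 had 70, led by the row of the microRNA Mir1964, then Fah and Acacb. Gja5 had 8, led by the hormone receptor gene Pth1r (34.7, 8.03 and 13.9 FPKM), Ank2 and the transcription factor gene Snai1 (11.7, 2.06 and 3.26 FPKM). FPKM of microRNA rows, which are shorter than the sequenced fragments, is unreliable. Likeness over 3 values is a description only, and 11 of the 18 genes named here were replaced when the pseudocount was 0.1.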

How the data were processed

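RNA from whole skin at 3 ages was extracted with Trizol and made into Illumina TruSeq libraries from 1 ug of total RNA, per the labels' protocols. The authors deposited FPKM values, 1 per gene and age and headed as an average, per the file headers. TopHat2 2.0.7, Cufflinks 2.1.1 and mouse build mm9 are named in the submitters' processing notes. Read numbers, the gene annotation and the strand setting were not given in the sources used here.

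Each table had 21881 rows, of which 21877 were in all 3. Values at 0 with a failure mark (3 at E18.5, 7 at P3, none a connexin) were left out. Starts in the tables count from 0 (in 228 of 533 microRNA rows end minus start equalled the RefSeq length, and in 3 end minus start plus 1 did), so 1 was added. Log2 differences, shares, ratios and distances were computed with Python 3.11.15, numpy 2.4.6 and pandas 2.3.3, and the code was tested on simulated data. With 1 value per age no test was run, and the fit foreseen for replicate columns was not used. Motifs were searched in RefSeq promoter windows of GRCm38.p6, a build other than that of the tables.

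The 6 connexins and the lists were chosen with earlier results of these data known. The 18 lists hold 147 entries, all found by symbol. Named were all members, every other connexin and pannexin reaching 1 FPKM, partners called in any comparison, the 3 most alike genes and the nearest rows on either side of each member, and for marker lists the 2 genes of highest mean. Some genes that this rule would name are not reported here. Tjp1 and Panx2 were named after their values were seen. Alternatives were the pseudocount (0.1 or 5), 3 scalings, the minimum FPKM, the denominator of shares and the mean of a list.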

Additional observations from a re-analysis of the deposited data

How the results depend on the processing

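Of 126 recomputed log2 differences of the 6 connexins, 119 kept their side of the threshold, 4 calls were lost, 3 were gained and none changed sign while called. Changing the minimum FPKM cannot move these values, so the recomputations under it are among the 119 by construction. Upper-quartile scaling gave 0.84 for Gja1 from E18.5 to P3. A pseudocount of 5 gave -0.85 and 0.98 for Gja4 from E18.5 to P3 and from P3 to 10 weeks, and -0.82 for Gja5 from E18.5 to 10 weeks, which left 1 connexin lower, 0 higher and 1 lower in these 3 comparisons. For Gjb2 from E18.5 to 10 weeks the value was -1.16 with the median of ratios, -1.19 with the upper quartile and -1.07 with a common total. A larger pseudocount damps low genes by construction; the cause of the other shifts was not tested. From E18.5 to 10 weeks the median of ratios moved log2 ratios by -0.27, the upper quartile by -0.30 and a common total by -0.14.

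With the 6 connexins alone as denominator, the shares at E18.5, P3 and 10 weeks were 73.5%, 60.1% and 70.6% for Gja1, 7.51%, 25.1% and 5.72% for Gjb2, 8.67%, 9.17% and 15.5% for Gjb5, and 3.69%, 4.99% and 0.822% for Gjb6, 3.43%, 0.416% and 5.85% for Gja4, and 3.19%, 0.209% and 1.49% for Gja5, larger by construction. Against the mean of the marker list in place of its median, Gja1 was at -0.92 from the basal list from P3 to 10 weeks, Gjb2 at -1.15 from E18.5 to 10 weeks (-1.02 with a pseudocount of 0.1), and Gja4 at -1.04 and 1.13 from the arterial list in the steps to P3 and to 10 weeks. The other 67 of 72 such values kept their side. Of the 18 most alike genes, 7 were shared with a pseudocount of 0.1. For the other genes named with their differences, an alternative added after seeing the data, 173 values kept their side, 7 calls were lost and 3 gained. Values recomputed under another minimum FPKM are again among the 173 by construction. Over all genes, a pseudocount of 5 left 842 higher and 626 lower from E18.5 to P3, 1596 and 898 from P3 to 10 weeks, and 1274 and 561 from E18.5 to 10 weeks; a pseudocount of 0.1 gave 2155 lower at P3. No paired analysis was possible because each age has 1 averaged value, and for the same reason no replicate could be left out. Depth is unknown, so the precision of low values such as Gja5 at P3 (1.43 FPKM) or Gjb6 in the adult (1.47 FPKM) cannot be stated.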
